A study of Mus musculus with 6 samples.

Results

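The TNF superfamily pairs cytokines, made mostly as membrane-bound trimers, with cell-surface receptors. Some receptors carry a death domain and can recruit caspase-8. Others bind TRAF adapters and switch on NF-kappaB, and a few lack a signalling tail and act as decoys. Macrophages are a main source of TNF, and many ligands of the family act between macrophages and T cells, B cells or osteoclast precursors. The members described here were picked by name, with no measured value in the rule. Earlier results of these data were known when the rule was set. It takes protein-coding genes whose symbol starts with Tnfsf or Tnfrsf and a number, plus Tnf, Lta, Ltb, Ltbr, Fas and Fasl. That rule took 37 of the 54532 genes in the deposited table, 15 ligands and 22 receptors.

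Macrophage RNA was sequenced in 6 libraries, 3 carrying the label Tet2 knockout and 3 the label wild-type, and all 6 were exposed to MSU (monosodium urate, the crystal of gout). The study's design text calls them bone-marrow-derived macrophages. Tet2 encodes a dioxygenase that acts on methylated DNA and is often mutated in clonal hematopoiesis. The labels give neither the allele, nor a driver of any deletion, nor the age or number of the mice, and leave unsaid whether replicates were separate cultures. The p-values below may thus rest on technical spread alone. Every library was treated, so the comparison concerns the genotype label among treated cells.

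Total counts ran from 13425170 to 14481843 in the libraries labelled knockout and from 11997104 to 13881435 in those labelled wild-type. Tet2 itself was not lower in the libraries labelled knockout, with 32.7, 34.2 and 34.0 CPM (the read count scaled by the library's total and its TMM factor), against 29.3, 27.9 and 30.7 CPM in those labelled wild-type. Its log2 change was 0.20 (SE 0.07; edgeR adjusted p = 0.0159). That call was lost with DESeq2 (adjusted p = 0.0691) and without either replicate 2 (edgeR adjusted p = 0.0556 without the knockout one and 0.0784 without the wild-type one). The labels do not say which exons were deleted, so a count over the whole gene may not check the label. Because the targeted gene did not follow the label, each direction below is that of the libraries labelled knockout relative to those labelled wild-type. Macrophage markers were present as 8 of 8 genes, with a summed level of 6656 to 6929 CPM in knockout-labelled libraries and 6483 to 6897 CPM in wild-type-labelled ones, but 4 of the 8 were higher and 3 lower. Adgre1 was 1.71-fold, Mertk 1.57-fold, Csf1r 1.47-fold and Fcgr1 1.15-fold the wild-type-labelled level, and Cd68 0.939-fold, Cd14 0.882-fold and Lyz2 0.722-fold. The larger of these are the size of the receptor rises below, and their part in those was not tested. Markers of the fibroblast and osteoblast lineage were also abundant as a sum. The 11 genes of that list summed to 7068 to 7247 CPM in knockout-labelled libraries and 7569.6 to 8081 CPM in wild-type-labelled ones. None was at 0 in all libraries, and of 9 tested 1 was higher and 6 were lower. The osteoblast genes Sp7 and Bglap had at most 5 and 1 counts in any library and were not tested. Wild-type replicate 2 stood apart from its group, as its counts differed from those of the other 2 by 2.28 and 2.30 times the sampling variance, against 1.56 to 1.71 for the other pairs within groups.

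Of the 15 ligands, 9 passed the filter on low counts, and 4 of these were higher and none lower in the knockout-labelled libraries (edgeR adjusted p under 0.05). One of these 4, Tnfsf4, reached the filter's level in knockout-labelled libraries alone, so it had to differ. Leaving it out, a choice made after seeing the data, gave 3 of 8 ligands higher. No ligand was lower at an unadjusted edgeR p under 0.05 either, nor with DESeq2. Of the 22 receptors, 16 passed the filter, and 6 were higher and 5 lower. Over all 13175 genes tested, 40.9% were called, 21.6% higher and 19.2% lower, although upper-quartile scaling turned that balance, with 2599 genes higher and 2883 lower in place of 2852 and 2533. The share of tested members called was 37.5% for ligands without Tnfsf4 (44.4% with it), near that background, and 68.8% for receptors. Ligands had lower levels, with a median log2 CPM of 2.45 for the 9 tested, beside 4.64 for receptors and 4.62 for all tested genes. Changes are harder to call at low counts, so these shares are not on equal terms. The median log2 change was 0.18 for the 8 ligands without Tnfsf4 (0.25 with it) and 0.09 for receptors, beside -0.00309 for all tested genes. The median absolute change was 0.18 for those 8 ligands, 0.23 for receptors and 0.17 for all tested genes. Libraries of the groups did not overlap for 4 of these 8 ligands and 12 of 16 receptors, beside 47.8% of all tested genes. The spread between libraries was small, so a biological coefficient of variation of 0.1 was also assumed. Under it 2 of the 8 ligands (Tnfsf10 and Tnfsf15) and 7 receptors (Tnfrsf8, Tnfrsf9, Tnfrsf10b, Tnfrsf11a, Tnfrsf13b, Tnfrsf14 and Tnfrsf26) were still called, and 14.3% of all tested genes, 9.28% higher and 5.03% lower.

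**Figure D1:**
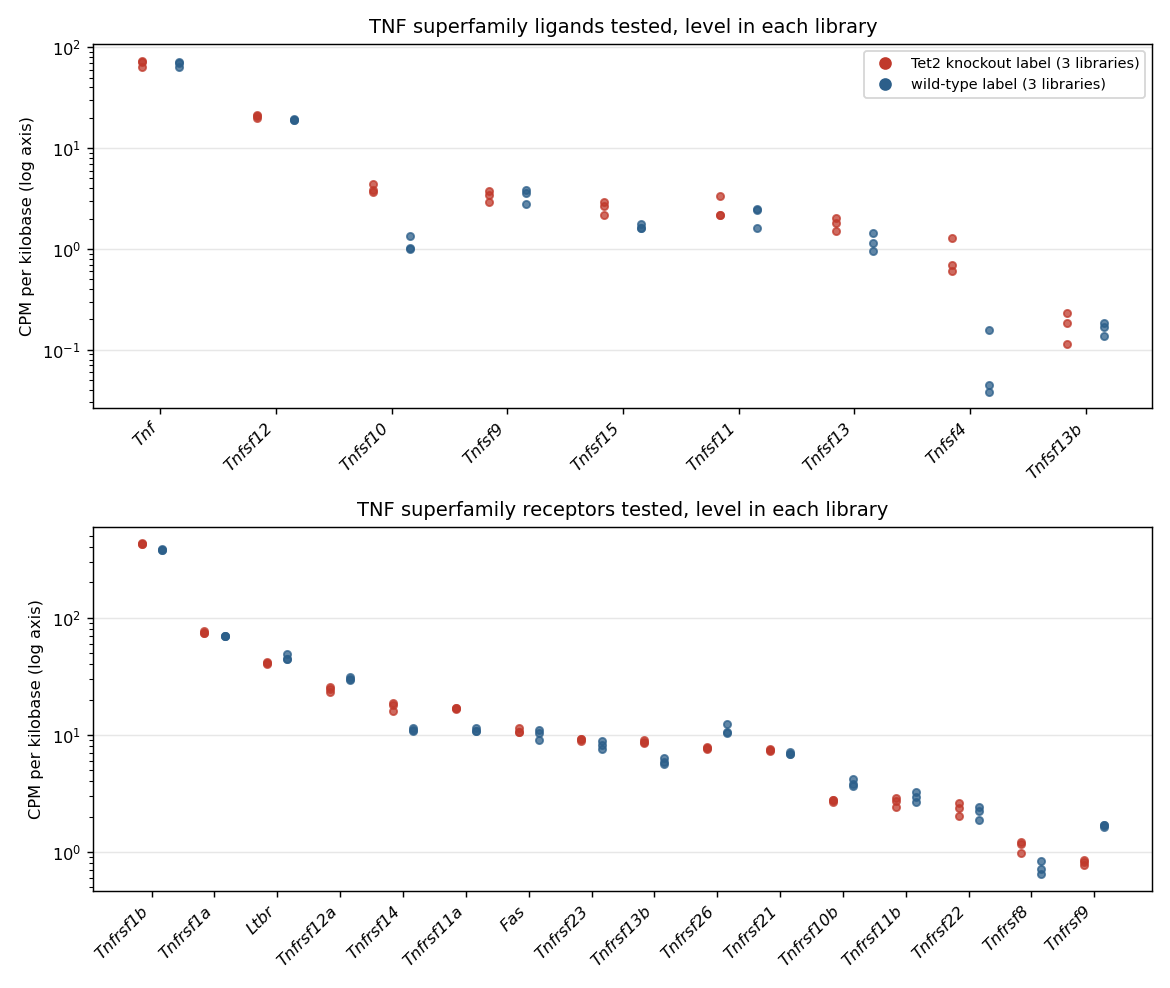
Level per exon length (CPM per kilobase, log axis) of the 9 tested ligands (upper panel) and 16 tested receptors (lower panel), each point 1 library, knockout-labelled to the left of wild-type-labelled, genes ordered by their knockout-labelled mean on that scale. Tnf and Tnfrsf1b lead their panels in both groups, and Tnfsf10 and Tnfsf4 show the widest gaps between groups. Only the knockout-labelled libraries brought Tnfsf4 over the filter on low counts, so it had to differ.

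**Figure D2:**
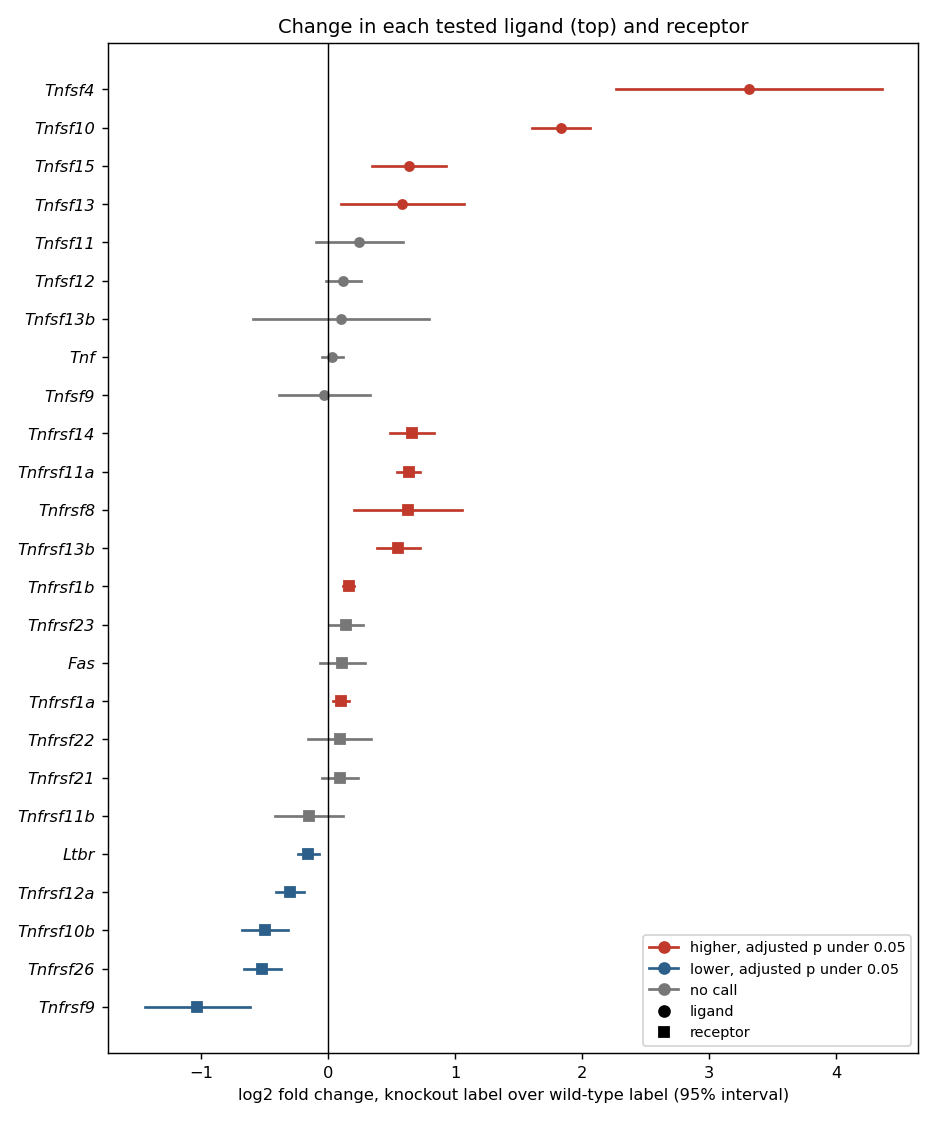
Log2 fold change of the knockout-labelled over the wild-type-labelled libraries with its 95% interval, for tested ligands (circles, top) and receptors (squares, below), coloured by call. The called ligands all lie above 0, whereas called receptors lie on both sides, from 0.66 for Tnfrsf14 to -1.03 for Tnfrsf9. Only the knockout-labelled libraries brought the ligand Tnfsf4 over the filter on low counts, so it had to differ.

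Tnf, the founding cytokine of the family, was the most abundant ligand on a scale of CPM per kilobase of exon, and it did not pass the test. Its level was 116, 106 and 121 CPM in knockout-labelled libraries, against 105, 117 and 114 CPM in wild-type-labelled ones. The groups overlapped, and the 95% interval of the log2 change ran from -0.05 to 0.11. Per kilobase, Tnf made up 65.2 ± 1.48% of the summed ligand level in knockout-labelled libraries and 69.7 ± 1.32% in wild-type-labelled ones (SD, n = 3 each).

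The receptors of Tnf were both higher, by little. Tnfrsf1b encodes TNFR2, which lacks a death domain, and had 1641, 1617 and 1614 CPM in knockout-labelled libraries, against 1449.8, 1464 and 1448 CPM in wild-type-labelled ones. Every knockout-labelled library lay above every wild-type-labelled one, and the log2 change was 0.16 (SE 0.02; edgeR adjusted p = 9.47e-10). Tnfrsf1a, which encodes the death-domain receptor TNFR1, stood at 192, 199 and 190.4 CPM against 180.1, 182 and 181 CPM, a log2 change of 0.10 (SE 0.03; edgeR adjusted p = 0.00979). These groups did not overlap either. Neither call held when a spread of 0.1 was assumed (edgeR adjusted p = 0.424 for Tnfrsf1b and 0.661 for Tnfrsf1a), and that of Tnfrsf1a was also lost without knockout replicate 2 (edgeR adjusted p = 0.0981). On the per-kilobase scale Tnfrsf1b alone made up 65.0 ± 0.254% of the summed receptor level in knockout-labelled libraries and 63.2 ± 0.151% in wild-type-labelled ones, and Tnfrsf1a 11.4 ± 0.269% and 11.6 ± 0.0334% (SD, n = 3 each).

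The ligand TRAIL and its death receptor moved in opposite directions. Tnfsf10 (ENSMUSG00000039304, mm10 chr3:27317028-27342427, plus strand) encodes TRAIL, which triggers apoptosis and is well known as interferon-inducible, and it stood at 23.1, 19.2 and 20.4 CPM in knockout-labelled libraries, against 5.39, 7.004 and 5.32 CPM in wild-type-labelled ones. The lowest knockout-labelled library was well above the highest wild-type-labelled one. Its log2 change was 1.83 (SE 0.12; edgeR adjusted p = 1.33e-27), a 3.56-fold difference, and it ranged from 1.75 to 1.96 over the 13 alternatives with no call lost. Only 2.43% of all tested genes were called with at least a 2-fold change. In bulk RNA a difference in the number of expressing cells and one in RNA per cell cannot be told apart, here or in any result below.

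Tnfrsf10b (ENSMUSG00000022074, mm10 chr14:69767472-69784411, plus strand) encodes the only death receptor for TRAIL in the mouse. Its level was 15.3, 14.5 and 15.2 CPM in knockout-labelled libraries, against 20.7, 23.1 and 20.0 CPM in wild-type-labelled ones. It fell by 0.50 on the log2 scale (SE 0.09; edgeR adjusted p = 2.03e-06), with no overlap between groups and the call kept in all 13 alternatives. About 9.74% of the 50-base words of its longest transcript also occur in transcripts of other genes, so some of its reads could be placed elsewhere.

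Mouse decoy receptors for TRAIL, Tnfrsf22 and Tnfrsf23, lie beside Tnfrsf26 on chromosome 7 and lack a functional death domain. Tnfrsf26 fell, with 24.8, 25.4 and 24.1 CPM in knockout-labelled libraries against 33.1, 33.8 and 39.6 CPM in wild-type-labelled ones (log2 change -0.52, SE 0.07; edgeR adjusted p = 1.83e-09). Its groups stood clearly apart. Tnfrsf22 averaged 9.84 ± 1.26 CPM in knockout-labelled libraries and 9.18 ± 1.15 CPM in wild-type-labelled ones, and Tnfrsf23 36.1 ± 0.849 and 32.7 ± 2.55 CPM (SD, n = 3 each). Neither passed the test, although Tnfrsf23 did so without wild-type replicate 3 (edgeR adjusted p = 0.0317). The 95% interval of the log2 change was -0.66 to -0.37 for Tnfrsf26 and -0.16 to 0.34 for Tnfrsf22, and the difference between these genes was not tested. Tnfrsf22 and Tnfrsf23 are paralogs that share sequence with each other: 28.1% of the 50-base words of the longest Tnfrsf22 transcript, and 23.4% of those of Tnfrsf23, recur in transcripts of other genes. Their separate values are uncertain for that reason.

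Fas, the death receptor for Fas ligand, did not pass the test, with 19.2, 18.9 and 20.8 CPM in knockout-labelled libraries and 16.4, 19.7 and 18.5 CPM in wild-type-labelled ones (95% interval of the log2 change -0.07 to 0.29). Fasl itself had 0 or 1 count in each of the 6 libraries. Tnfrsf21, the death-domain receptor DR6, averaged 30.4 ± 0.548 CPM in knockout-labelled libraries and 28.6 ± 0.644 CPM in wild-type-labelled ones (SD, n = 3 each), with an interval from -0.05 to 0.23. Its libraries did not overlap between groups, yet the change was not called (edgeR adjusted p = 0.335).

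**Figure D3:**
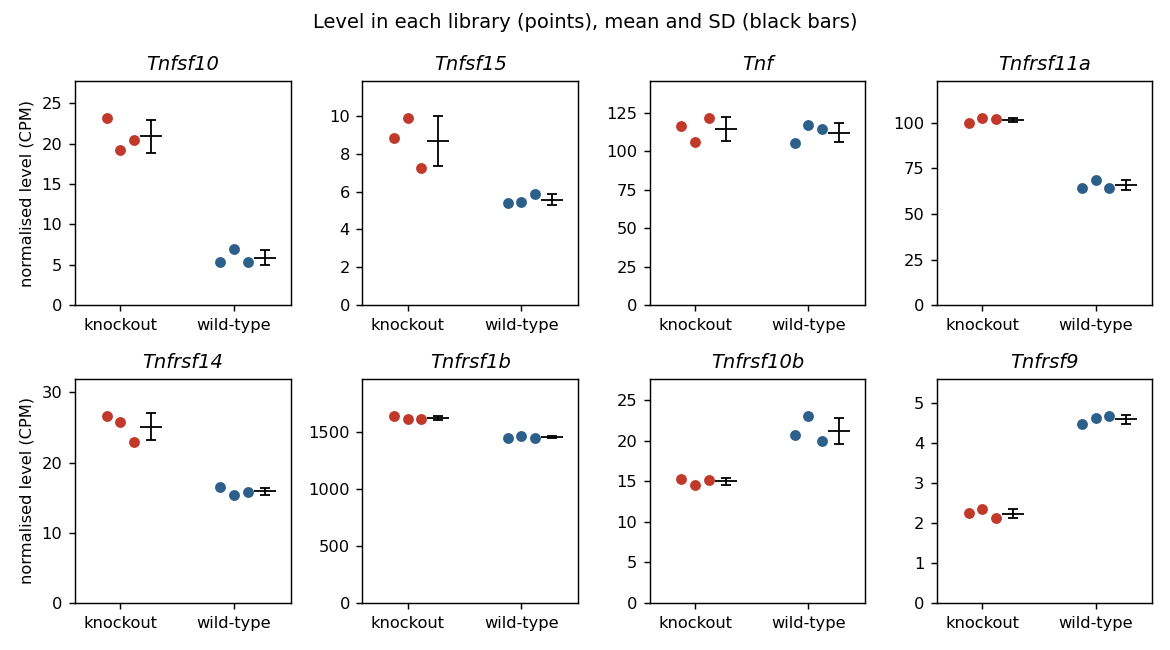
Level (CPM, axes from 0) of 8 members in each library, knockout-labelled left and wild-type-labelled right, with the mean and SD of 3 libraries beside the points. Tnfsf10, Tnfsf15, Tnfrsf11a, Tnfrsf14 and Tnfrsf1b are higher in every knockout-labelled library, Tnfrsf10b and Tnfrsf9 are lower in every one, and Tnf overlaps.

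On the axis of bone resorption, the signalling receptor was called, and its ligand and decoy were not. Tnfrsf11a (ENSMUSG00000026321, mm10 chr1:105780718-105847981, plus strand) encodes RANK, which drives macrophage precursors to become osteoclasts, and its level was 99.99, 102 and 102 CPM in knockout-labelled libraries, against 64.0, 68.7 and 64.0 CPM in wild-type-labelled ones. Its groups were separated by far more than their spread (log2 change 0.63, SE 0.05; edgeR adjusted p = 8.17e-24), and the call held in all 13 alternatives. Tnfsf11, its ligand RANKL, had 7.50, 4.89 and 4.84 CPM in knockout-labelled libraries and 5.60, 5.44 and 3.59 CPM in wild-type-labelled ones, and Tnfrsf11b, the soluble decoy osteoprotegerin, 6.80, 8.09 and 7.63 CPM against 7.45, 8.32 and 9.19 CPM. Both overlapped between groups and neither was called (95% intervals of the log2 change -0.10 to 0.59 for Tnfsf11 and -0.42 to 0.12 for Tnfrsf11b). That of Tnfrsf11a was 0.54 to 0.72, which overlaps the Tnfsf11 interval, and differences between these genes were not tested. With single libraries left out, the Tnfsf11 log2 change ran from 0.0014 to 0.36. Tnfsf11 and Tnfrsf11b are typically made by osteoblasts and stromal cells. Fibroblast genes such as Col1a1 were abundant here, and the tested stromal markers were mostly lower in the knockout-labelled libraries. The osteoblast genes Sp7 and Bglap were too low to test. The part of such cells in these values was not tested.

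TWEAK and its receptor Fn14 are encoded by Tnfsf12 and Tnfrsf12a. Tnfrsf12a, an injury-induced receptor common on fibroblasts, fell to 49.1, 44.8 and 47.5 CPM in knockout-labelled libraries, against 59.9, 56.7 and 57.7 CPM in wild-type-labelled ones (log2 change -0.30, SE 0.06; edgeR adjusted p = 1.91e-06). The groups did not overlap, but the call was lost with a spread of 0.1 assumed (edgeR adjusted p = 0.0904). Of the 11 fibroblast and osteoblast markers, the 6 lower ones ranged in log2 change from -1.15 (Lum) to -0.09 (Col1a2), with Acta2 at -0.53, Postn at -0.40, Dcn at -0.25 and Col1a1 at -0.11. Col3a1 was higher (0.11), Pdgfra and Pdgfrb were not called, and Sp7 and Bglap were too low to test. Their part in the fall of Tnfrsf12a was not tested. Tnfsf12, the next most abundant ligand after Tnf per kilobase, had 30.2, 31.8 and 32.1 CPM in knockout-labelled libraries and 28.7, 29.5 and 28.5 CPM in wild-type-labelled ones. It did not overlap between groups and was not called (log2 change 0.12, 95% interval -0.02 to 0.26).

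Among ligands that costimulate T cells, Tnfsf15 rose, and Tnfsf4 was near absent in wild-type-labelled libraries. Tnfsf15 encodes the cytokine TL1A and had 8.83, 9.86 and 7.25 CPM in knockout-labelled libraries, against 5.39, 5.44 and 5.89 CPM in wild-type-labelled ones. All knockout-labelled libraries were above all wild-type-labelled ones (log2 change 0.64, SE 0.15; edgeR adjusted p = 0.000151), and no alternative ended the call. Its receptor gene Tnfrsf25, mainly a T cell gene, had at most 3 counts in any library. Endothelial cell markers, 4 in all, summed to 39.7 to 40.9 CPM in knockout-labelled libraries and 32.9 to 37.6 CPM in wild-type-labelled ones. Of 3 tested, 1 was higher (Kdr, 1.38-fold) and none lower. The part of endothelial cells in the Tnfsf15 values was not tested.

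Tnfsf4 encodes OX40L and was scarce in both groups. Its raw counts were 16, 18 and 31 in knockout-labelled libraries and 1, 1 and 4 in wild-type-labelled ones, with no overlap. The ratio of the scaled sums was 10.5, with an exact 95% interval of 4.55 to 29.5 that covers counting error only, since reads without molecular identifiers are not independent molecules. The edgeR log2 change was 3.31 (SE 0.53; adjusted p = 7.70e-08). It ran from 2.93 without knockout replicate 3 to 4.20 without wild-type replicate 3, and depends on the prior count. No wild-type-labelled library reached the filter's level of 0.725 CPM, so the gene was tested only because of the group in which it was high. Its receptor gene Tnfrsf4 had 3 counts in each knockout-labelled library and 2, 5 and 6 in the wild-type-labelled ones. OX40L is known from dendritic cells, and the 5 dendritic cell markers summed to 5.26 to 6.53 CPM in knockout-labelled libraries and 3.19 to 4.74 CPM in wild-type-labelled ones. Of these, Siglech was at 0 in every library, 2 were tested and 1 was higher, namely Xcr1 (3.59 ± 0.562 against 1.71 ± 0.649 CPM; SD, n = 3 each). The part of such cells was not tested.

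Of the 4-1BB pair, the receptor was called and the ligand was not. Tnfrsf9 (ENSMUSG00000028965, mm10 chr4:150914562-150946102, plus strand) encodes 4-1BB, a costimulatory receptor induced on activated cells, and had 2.24, 2.34 and 2.12 CPM in knockout-labelled libraries, against 4.47, 4.61 and 4.67 CPM in wild-type-labelled ones. It had the deepest fall among tested receptors of the naming rule (log2 change -1.03, SE 0.21; edgeR adjusted p = 1.85e-05). The groups did not overlap, and every alternative kept the call. Ngfr, a receptor outside that rule, had a lower log2 change (-1.22). Tnfsf9, its ligand, had 3.78, 4.82 and 4.46 CPM in knockout-labelled libraries and 4.68, 3.63 and 4.96 CPM in wild-type-labelled ones, which overlapped. Its 95% interval of the log2 change, -0.39 to 0.33, includes changes of moderate size in either direction. Of the exon bases of Tnfsf9, 14.9% lie opposite the noncoding gene Gm11110. That gene had 17, 27 and 19 counts in knockout-labelled libraries and 26, 37 and 35 in wild-type-labelled ones, so the Tnfsf9 values are uncertain.

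CD30, encoded by Tnfrsf8, stood at 4.20, 3.40 and 4.08 CPM in knockout-labelled libraries, against 2.48, 2.88 and 2.23 CPM in wild-type-labelled ones. It was called higher without overlap (log2 change 0.63, SE 0.21; edgeR adjusted p = 0.0124), but not with DESeq2 (adjusted p = 0.0588), without knockout replicate 1 (0.0577) or without wild-type replicate 3 (0.0644). Over all alternatives its adjusted p ran from 0.0111 to 0.0644. Its ligand gene Tnfsf8 had 3 to 6 counts in knockout-labelled libraries and 2 to 4 in wild-type-labelled ones, and was not tested.

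In the group around LIGHT and lymphotoxin, one receptor rose and another fell. Tnfrsf14 (ENSMUSG00000042333, mm10 chr4:154921933-154928563, minus strand) encodes HVEM, the shared receptor for LIGHT and the checkpoint protein BTLA, and had 26.6, 25.8 and 22.97 CPM in knockout-labelled libraries, against 16.5, 15.4 and 15.9 CPM in wild-type-labelled ones. Its log2 change was 0.66 (SE 0.09; edgeR adjusted p = 1.55e-10), with no overlap and no call lost in 13 alternatives. Tnfrsf11a (0.63) and Tnfrsf8 (0.63) were close, and the order of the 3 changed when single libraries were left out. Ltbr, the lymphotoxin-beta receptor, fell to 96.1, 98.7 and 95.2 CPM in knockout-labelled libraries, against 105, 116 and 103 CPM in wild-type-labelled ones. That fall was small (log2 change -0.16, SE 0.04; edgeR adjusted p = 0.00136) and was not called with a spread of 0.1 assumed (edgeR adjusted p = 0.444). The ligand genes were near the detection limit. Tnfsf14 (LIGHT) had 12, 8 and 12 counts in knockout-labelled libraries and 6, 7 and 3 in wild-type-labelled ones, Ltb had 10, 7 and 10 against 3, 5 and 6, and Lta had 3, 6 and 1 against 3, 3 and 3. None of the 3 was tested. Lymphotoxin genes are mainly lymphocyte genes. The T cell markers Cd3d and Cd3g were at 0 in all libraries. The 6 T cell markers summed to 11.5 to 12.6 CPM in knockout-labelled libraries and 3.46 to 3.95 CPM in wild-type-labelled ones. Nearly all of that was Cd4, which averaged 11.7 ± 0.690 and 3.48 ± 0.354 CPM (SD, n = 3 each). Cd3e, Cd8a and Trac had at most 1, 2 and 6 counts in any library and were not tested.

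B cell survival factors and their receptors differed in which members were detected. Tnfrsf13b encodes TACI, a receptor for both BAFF and APRIL, and had 24.5, 24.3 and 25.5 CPM in knockout-labelled libraries, against 17.9, 15.99 and 16.6 CPM in wild-type-labelled ones. It rose by 0.55 on the log2 scale (SE 0.08; edgeR adjusted p = 2.96e-08), without overlap and in all 13 alternatives. The other receptors of these ligands were all but absent: Tnfrsf13c (BAFF receptor) had 3 counts over the 6 libraries, and Tnfrsf17 (BCMA) had 0, which allows up to 0.210 to 0.247 CPM per library (3 counts). The 5 B cell markers summed to 0.378 to 1.33 CPM in knockout-labelled libraries and 0.0718 to 0.330 CPM in wild-type-labelled ones, and none passed the filter.

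Tnfsf13, which encodes APRIL, had 2.94, 2.48 and 3.33 CPM in knockout-labelled libraries, against 2.34, 1.57 and 1.87 CPM in wild-type-labelled ones. The libraries did not overlap and the change was called by a narrow margin (log2 change 0.58, SE 0.25; edgeR adjusted p = 0.0476). The call was lost in 9 of 13 alternatives, with adjusted p from 0.0316 to 0.172 over all of them. Tnfsf13 shares 60.0% of its exon bases with the read-through gene Tnfsfm13 on the same strand and 13.5% with the antisense gene Tnfsf13os, and 48.3% of the exon bases of Tnfsf12 also belong to Tnfsfm13. The deposited counts of Tnfsfm13 were 92, 94 and 79 in knockout-labelled libraries and 63, 53 and 78 in wild-type-labelled ones, so the values of both ligands are uncertain. Tnfsf13b, which encodes BAFF, was low at 1.26, 0.780 and 1.59 CPM in knockout-labelled libraries and 1.28, 1.15 and 0.934 CPM in wild-type-labelled ones. It was not called, and its 95% interval of the log2 change, -0.59 to 0.79, was the widest among the tested members that were not called.

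The remaining members were too low to pass the filter on low counts. Tnfrsf18, the receptor GITR, had 5, 7 and 6 counts in knockout-labelled libraries and 1, 1 and 2 in wild-type-labelled ones, a ratio of scaled sums of 4.34 with an exact 95% interval of 1.43 to 17.6. Tnfrsf19 (TROY) had 9, 7 and 6 counts against 3, 2 and 1, a ratio of 3.54 (1.39 to 10.7). Neither gene overlapped between groups, and 27.2% of the exon bases of Tnfrsf18 lie opposite the antisense gene Gm16008. Run without that filter, edgeR tested 15 ligands and 21 receptors. It then called no member that the filter had removed, Tnfrsf18 and Tnfrsf19 included. Tnfsf18, the ligand of GITR, had 1, 6 and 3 counts in knockout-labelled libraries and 0, 2 and 2 in wild-type-labelled ones. In all, 12 of the 37 members, 6 ligands and 6 receptors, did not pass the filter.

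**Figure D4:**
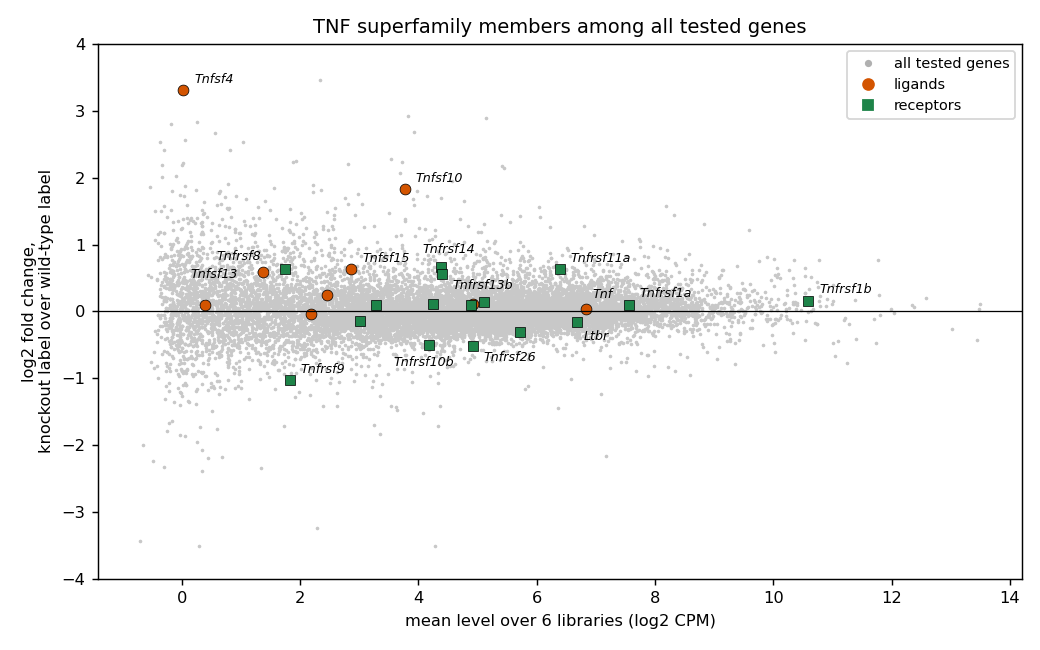
Log2 fold change of the knockout-labelled over the wild-type-labelled libraries against the mean level over all 6 libraries (log2 CPM), for all 13175 tested genes (grey), 9 ligands (orange circles) and 16 receptors (green squares). Tnfsf10 (1.83) and Tnfsf4 (3.31) lie at the upper edge of the cloud, and Tnfrsf9 (-1.03) towards its lower edge. Only the knockout-labelled libraries brought Tnfsf4 over the filter on low counts, so it had to differ.

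Many members lie next to one another in the genome, and 11 adjacent pairs within 200 kb joined 20 of the 37 genes (mm10 coordinates of the deposited table). Neighbours did not always share a call. On chromosome 4, Tnfrsf1b and Tnfrsf8 (positions 145213463 to 145315164, 20.3 kb apart) were both higher. On chromosome 6, Ltbr was lower and Tnfrsf1a, 35.5 kb away, was higher. The chromosome 7 cluster of Tnfrsf26, Tnfrsf22 and Tnfrsf23 (positions 143607659 to 143685872) held 1 lower gene and 2 uncalled ones. On chromosome 17, Tnf lies between Ltb and Lta, at gaps of 3.06 and 1.16 kb, and only Tnf of these was abundant enough to test.

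The sequence before the start of 4 called members is shown because they include the TRAIL gene, the receptors Tnfrsf14 and Tnfrsf9, called in opposite directions, and the receptor with the highest level per kilobase. Each run is the 250 bases before the RefSeq start on GRCm38.p6 (the mm10 assembly), read 5′ to 3′ on the gene's strand. Capitals mark 3 motifs searched on both strands: an interferon-response core (GAAA, any 2 bases, GAAA), a STAT site (TTC, any 3 bases, GAA) and an NF-kappaB form (GGGA, any 4 bases, CC).
Tnfsf10 (chr3:27316827-27317076, plus strand): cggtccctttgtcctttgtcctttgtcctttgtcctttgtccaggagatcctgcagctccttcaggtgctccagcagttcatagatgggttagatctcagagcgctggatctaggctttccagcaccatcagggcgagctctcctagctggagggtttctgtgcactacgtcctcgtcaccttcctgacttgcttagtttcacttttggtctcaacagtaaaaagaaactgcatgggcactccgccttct
Tnfrsf14 (chr4:154928078-154928327, minus strand): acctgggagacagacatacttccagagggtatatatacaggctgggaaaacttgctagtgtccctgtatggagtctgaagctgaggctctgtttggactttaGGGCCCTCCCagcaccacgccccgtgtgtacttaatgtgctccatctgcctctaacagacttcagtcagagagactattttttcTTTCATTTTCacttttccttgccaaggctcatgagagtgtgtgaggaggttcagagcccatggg
Tnfrsf1b (chr4:145246871-145247120, minus strand): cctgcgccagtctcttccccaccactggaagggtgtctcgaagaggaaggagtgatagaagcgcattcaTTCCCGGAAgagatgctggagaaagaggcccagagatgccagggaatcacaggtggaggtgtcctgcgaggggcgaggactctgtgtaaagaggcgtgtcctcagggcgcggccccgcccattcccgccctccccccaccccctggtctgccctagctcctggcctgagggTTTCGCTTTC
Tnfrsf9 (chr4:150927749-150927998, plus strand): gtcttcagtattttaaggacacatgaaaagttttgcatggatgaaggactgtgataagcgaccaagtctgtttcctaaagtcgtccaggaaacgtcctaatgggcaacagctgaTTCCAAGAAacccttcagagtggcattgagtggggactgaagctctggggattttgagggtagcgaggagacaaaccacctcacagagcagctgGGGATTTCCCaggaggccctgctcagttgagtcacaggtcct
For Tnfrsf9, which has 2 RefSeq starts, the window before the downstream one is shown. The window before the upstream start held no match to any of the 3 motifs. These letters did not match any motif in the Tnfsf10 window, which says nothing of the factors that bind there. The Tnfrsf14 window holds an interferon-response core match starting 64 bases before the start and an NF-kappaB match, the Tnfrsf1b window an interferon-response core match 10 bases before the start and a STAT match, and the Tnfrsf9 window a STAT match and an NF-kappaB match. By the deposited coordinates, the Tnfrsf14 and Tnfrsf9 windows lie inside those genes, and the Tnfsf10 window overlaps the first bases of its gene. A match is a description of letters and not of a bound site. Windows were found for 30 of the 37 members, 34 in all. The interferon-response core was in 4 of these 34 (11.8%) and in 2.98% of all 32851 RefSeq windows, the STAT site in 8 (23.5%) and 7.02%, and the NF-kappaB form in 8 (23.5%) and 17.6%. Besides Tnfrsf14 and Tnfrsf1b, the interferon-response core was found before Tnfsf13b, which was not called, and Tnfrsf17, which had no counts. None of these shares was tested.

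Superfamily genes whose symbols fall outside the naming rule included 3 ligands and 6 receptors, of which 4 were tested. Cd40, the macrophage receptor for T cell help, had 116, 125 and 114 CPM in knockout-labelled libraries, against 96.8, 103 and 99.5 CPM in wild-type-labelled ones. It was higher without overlap (log2 change 0.25, SE 0.04; edgeR adjusted p = 2.27e-07), although not with a spread of 0.1 assumed (edgeR adjusted p = 0.180). Ngfr, the low-affinity neurotrophin receptor, fell to 3.99, 3.19 and 3.78 CPM in knockout-labelled libraries, against 7.80, 8.90 and 8.91 CPM in wild-type-labelled ones (log2 change -1.22, SE 0.16; edgeR adjusted p = 1.35e-10). Its groups were well separated. Ngfr is known from neurons and stromal cells rather than macrophages, and the stromal markers given above were mostly lower in the same libraries, with their part not tested. Relt and Eda2r overlapped between groups and were not called. Cd40lg and Edar had no counts in any library.

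Below the receptors, all 35 adapters, kinases, regulators and shedding factors listed passed the filter, and 7 were higher and 5 lower, a share of 34.3% beside 40.9% of all tested genes. Adam17 encodes the protease that releases soluble TNF and several of its receptors from the cell surface, and had 448, 460.5 and 439 CPM in knockout-labelled libraries, against 327, 324 and 317 CPM in wild-type-labelled ones. It rose with the smallest adjusted p of this list (log2 change 0.48, SE 0.03; edgeR adjusted p = 1.88e-30), with no overlap. Rhbdf2, which carries that protease to the surface, averaged 77.7 CPM and 74.7 CPM and was not called (95% interval of the log2 change -0.04 to 0.15).

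The adapter genes Traf1 and Traf3 moved apart. Traf1, an NF-kappaB target bound to several receptors of the family, had 80.7, 82.1 and 85.0 CPM in knockout-labelled libraries, against 57.3, 60.2 and 63.6 CPM in wild-type-labelled ones (log2 change 0.45, SE 0.05; edgeR adjusted p = 4.97e-14). Traf3, which restrains the non-canonical NF-kappaB pathway, fell to 77.5, 75.7 and 73.2 CPM, against 86.3, 83.7 and 89.8 CPM in wild-type-labelled libraries (log2 change -0.20, SE 0.05; edgeR adjusted p = 0.000147). Tab1, a partner of the kinase TAK1, fell to 19.3, 19.5 and 18.7 CPM, against 24.8, 27.03 and 24.1 CPM in wild-type-labelled libraries (log2 change -0.40, SE 0.08; edgeR adjusted p = 2.72e-05). None of these 3 overlapped between groups. With a spread of 0.1 assumed, 5 of the 12 calls in the list were kept, those of Adam17, Traf1, Mlkl, Casp8 and Tab1. The 7 lost had edgeR adjusted p of 0.312 for Traf3, 0.286 for Ripk3, 0.228 for Cyld, 0.214 for Tnip1, 0.127 for Fadd, 0.0845 for Tnfaip3 and 0.0569 for Traf4.

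Among genes of the death-receptor branch, Mlkl, which executes necroptosis, had 131, 122 and 127 CPM in knockout-labelled libraries, against 100.2, 95.3 and 102 CPM in wild-type-labelled ones (log2 change 0.35, SE 0.04; edgeR adjusted p = 1.08e-12). The groups stood apart. Caspase-8 (Casp8, log2 change 0.33) and the necroptosis kinase Ripk3 (0.22) were also higher, as were the NF-kappaB regulators Cyld (0.23) and Tnip1 (0.23). Fadd, the adapter that links death receptors to caspase-8, was lower (-0.30), as was Traf4 (-0.42). These 6 were named after their values were seen. Tnfaip3, the ubiquitin editor A20 that dampens TNF signals, was lower at 215, 221 and 209.8 CPM against 265, 266 and 260.3 CPM (log2 change -0.29, SE 0.03; edgeR adjusted p = 2.00e-14). Ripk1, Tradd, Traf2, Birc2, Birc3 and the 3 IKK subunit genes Chuk, Ikbkb and Ikbkg, which form or act on the TNFR1 complex, were not called. Ripk1 did not overlap between groups all the same (edgeR adjusted p = 0.0698). Other genes tied to that complex were called, among them Casp8, Cyld and Tnip1 higher and Fadd, Tab1 and Tnfaip3 lower.

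**Figure D5:**
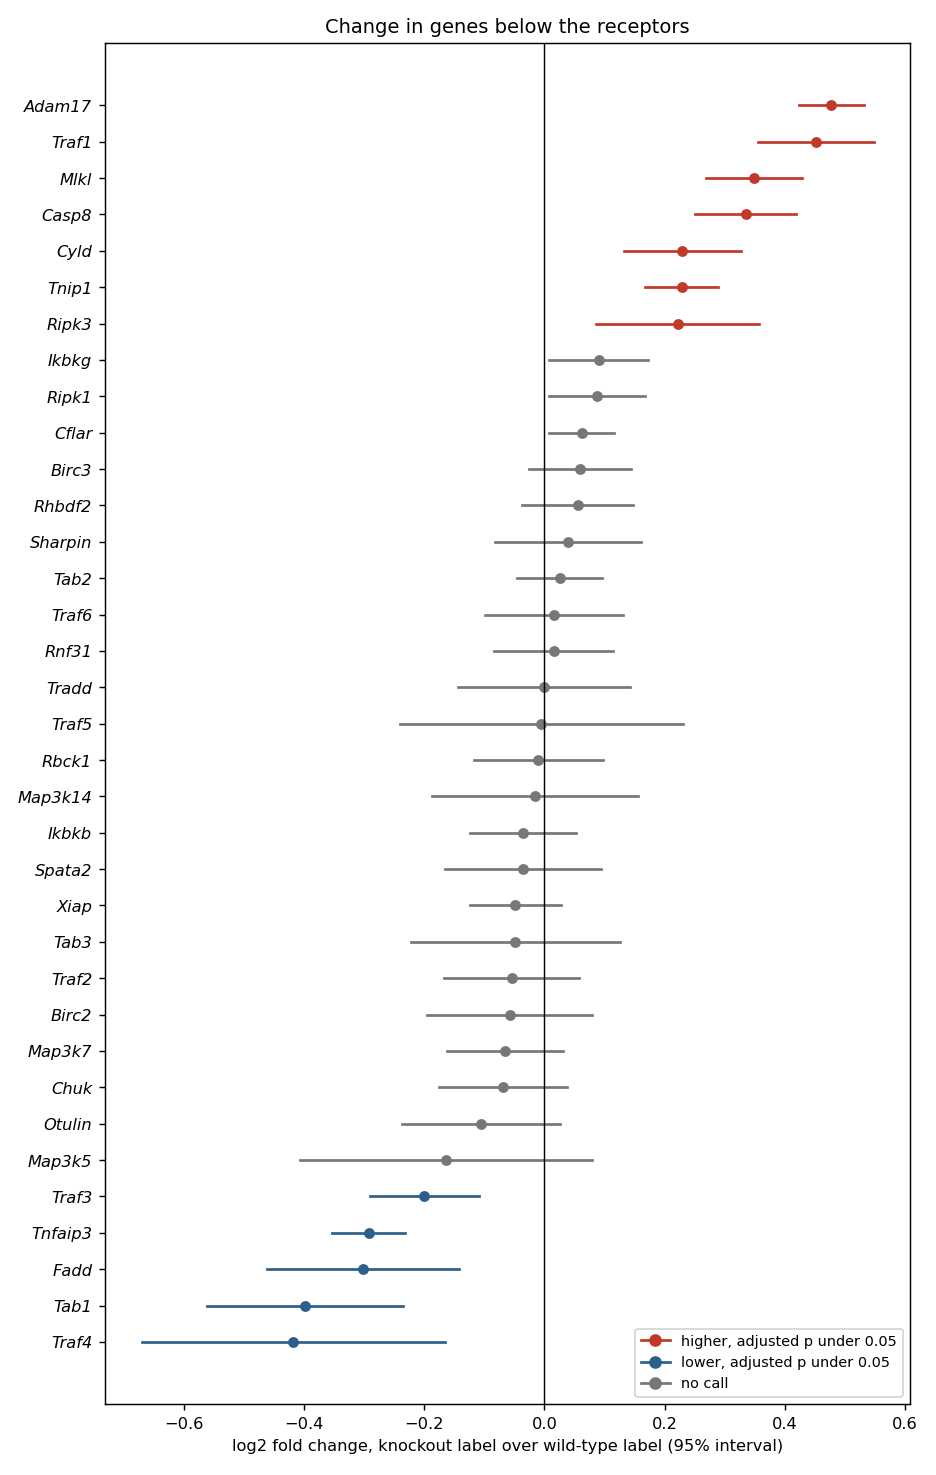
Log2 fold change of the knockout-labelled over the wild-type-labelled libraries with its 95% interval for 35 genes that act below or around the receptors, coloured by call. The 7 higher genes run from 0.48 (Adam17) to 0.22 (Ripk3), the 5 lower ones from -0.20 (Traf3) to -0.42 (Traf4), and 23 were not called.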

How the data were processed

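Per the submitters' processing notes, the authors used fastp, STAR and featureCounts with the build mm10; versions and strand setting: not given in the sources used here. The kit named in the labels' protocols does not mark strand. The deposited values are raw read counts per gene, with a length in bases, for 54532 named genes. From these counts, edgeR's filterByExpr (minimum count 10) left 13175 genes. The groups, 3 libraries each with totals of 11997104 to 14481843, were tested with edgeR 4.0.16 in R 4.3.3 (TMM scaling, robust quasi-likelihood, prior count 0.125, genotype label alone in the design). Benjamini-Hochberg adjustment covered every tested gene, at 0.05. Single values got no exact permutation test, whose p has a floor of 0.1 with 3 libraries a group. The model was first tested on simulated data. CPM used each library's whole total and TMM factor, and levels of different genes were compared per kilobase only. Intervals of count ratios and limits for counts of 0 cover counting error only. All tested members were named, with the 3 called rises and 3 called falls of the signalling list that had the smallest p, and tested superfamily genes with other symbols. The 13 alternatives were 2 scalings (RLE, upper quartile), DESeq2 1.42.0, 2 filters, a replicate block, a fixed biological coefficient of variation of 0.1, and each library left out with the same genes tested. Exon overlaps and 50-base words came from GENCODE M21 and promoters from RefSeq; promoters to print were chosen after values were seen. The members and lists were chosen with earlier results of these data known.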

Additional observations from a re-analysis of the deposited data

How the results depend on the processing

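With a biological coefficient of variation of 0.1 assumed, 1885 genes were called in place of 5385, 7 receptors in place of 11, 1 of the superfamily genes with other symbols in place of 2, and 5 signalling genes in place of 12, while 3 ligands were called in place of 4 (2 without Tnfsf4). Tet2 lost its call there (log2 change 0.20; edgeR adjusted p = 0.350) and with DESeq2 (0.19; adjusted p = 0.0691). When each library was left out in turn, its log2 change ran from 0.16 to 0.23, and leaving out either replicate 2, knockout or wild-type, ended the call (adjusted p = 0.0556 and 0.0784). In the same runs all genes called ran from 4720 to 5151, ligands from 3 to 4, receptors from 10 to 11 and signalling genes from 11 to 13, and the 2 genes with other symbols stayed at 2. Directions turned only for uncalled genes, whose log2 changes ran from -0.13 to 0.34 for Tnfsf13b, -0.0156 to 0.0852 for Tnf, -0.15 to 0.0620 for Tnfsf9, -0.00552 to 0.19 for Tnfrsf22 and -0.0262 to 0.14 for Eda2r; the cause was not tested. The other scalings moved the median log2 change of all tested genes by less than 0.1. Libraries with the same replicate number did not deviate together (correlations of 0.00365, -0.00646 and -0.0206). The labels do not say whether such libraries were handled together, and these correlations cannot settle it. With the replicate block 5259 genes, 3 ligands and 11 receptors were called. Depth limits the 12 members that did not pass the filter, whose counts were at most 12 in any library.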
